A study of Homo sapiens with 2 samples.

Results

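The chromosome 11 block examined here comprised the 279 SOX9 peaks whose centre lay from 60 up to 70 Mb of chromosome 11 in hg18 coordinates, a part of the long arm that the working name places in bands 11q12-q13. It held 279 of the 7547 peaks of the SOX9 list. The peaks came from chromatin immunoprecipitation and sequencing (ChIP-seq) with an antibody against SOX9 in VCaP, an established human prostate cancer line that carries the TMPRSS2-ERG fusion and has high basal SOX9, grown in serum-containing medium without any labelled treatment. The second library was input, sonicated chromatin of the same line that was not immunoprecipitated. With 1 library per group no replicate error could be measured, so no p-value is given and the intervals cover counting error over peaks only. The block was chosen by its position, after the number of peaks there had been seen. Its peak number, density and scores are therefore descriptions, and the comparisons with other regions were not tested.

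SOX9 belongs to the SOX family of transcription factors, whose HMG-box domain binds the minor groove of DNA and bends it. In the prostate it is known for its role in the budding of the developing gland, and in tumours with the TMPRSS2-ERG fusion it is known as a gene whose expression ERG supports. It is also linked to WNT signalling, the pathway named in the title of the series, through β-catenin. The bands 11q12 and 11q13 are gene-rich. They carry, among others, CCND1, which encodes the cell-cycle regulator cyclin D1, GSTP1, a detoxifying enzyme whose promoter is often methylated in prostate cancer, and the long non-coding RNAs MALAT1 and NEAT1. Which genes, exons or promoters the peaks lie in was not analysed here, since no genome or annotation of the build hg18 was used, and for the same reason no peak sequence is printed. The regions are named by position.

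Along the block the peaks formed a broad rise, with a steep left side and a less regular right side, rather than an even spread. Of the 20 windows of 0.5 Mb, 3 were empty. These were 60 to 60.5, 61.5 to 62 and 62.5 to 63 Mb. Between them lay 1 peak from 60.5 to 61 Mb, 7 from 61 to 61.5 Mb and 7 from 62 to 62.5 Mb, so the first 3 Mb held 15 peaks in all. The next window, 63 to 63.5 Mb, held 18 peaks, and the one after it, 63.5 to 64 Mb, held 74, the most of any window. Counts of 25, 18, 24, 16, 18 and 25 followed in the windows from 64 to 67 Mb. The window from 67 to 67.5 Mb dropped to 9 peaks, and 67.5 to 68 Mb held 16. Beyond 68 Mb the 4 windows held 5, 4, 8 and 4 peaks. The windows from 63 to 68 Mb, called the middle 5 Mb here, thus held at least 9 peaks each, and the others, called the outer 5 Mb, held at most 8 each. This division was made after the counts had been seen.

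**Figure D1:**
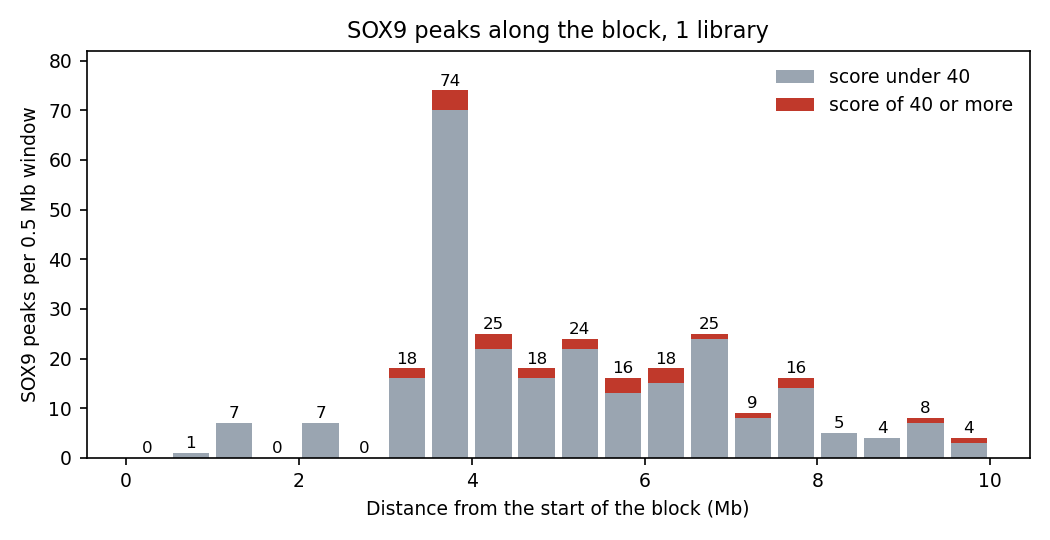
Number of SOX9 peaks in each 0.5 Mb window of the block, by distance from its start in Mb. Grey bars count peaks with a score under 40 and red bars those with a score of 40 or more, in 1 library. The window with 74 peaks stands above all others, the next fullest windows hold 25, and the first 3 Mb hold 15 peaks.

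The middle 5 Mb carried 243 of the 279 peaks, or 87.1% (exact Clopper-Pearson 95% interval 82.6 to 90.8%). That was a density of 48.6 peaks per Mb (exact Poisson 95% interval 42.7 to 55.1), against 7.2 (5.04 to 9.97) in the outer 5 Mb, a ratio of 6.75 (4.74 to 9.87). The sides of the rise coincided with some of the longest empty gaps of the block. On the left no peak was listed for 659 kb between positions 62356000 and 63014835. On the right none was listed for 378 kb between 67984916 and 68363341. A gap of similar length, 322 kb between 67156442 and 67478789, lay inside the middle 5 Mb. The outer 5 Mb still had 3.09 times (2.12 to 4.38) the density of the rest of chromosome 11, where 288 peaks gave 2.33 per Mb (2.07 to 2.61). That ratio pools the left and right parts of the outer 5 Mb. From 60 to 63 Mb the density was 5 peaks per Mb (2.80 to 8.25), and from 68 to 70 Mb it was 10.5 (6.50 to 16.05). Just outside the block, the 10 Mb before it held 10 peaks and the 10 Mb after it held 39. Bases to which no read can be aligned were not taken out of any of these lengths. The last peak before the block ended at 59140517, with a score of 66.5, and the first peak after it began at 70013837, with a score of 4.92. The number of reads and the number of DNA copies of the region were not measured here, so peaks per Mb do not measure binding alone.

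Within the middle 5 Mb, the 0.45 Mb from 63.5 to 63.95 Mb stood apart and is called the dense stretch. It held 73 peaks (Poisson interval 57.2 to 91.8), which was 26.2% of the block's peaks (21.1 to 31.7%) in 4.5% of its length. This amounted to 162 peaks per Mb (127 to 204), and 37.4 (31.96 to 43.4) were found over the other 4.55 Mb of the middle part. The peaks at its margins were not extreme in score. The peak just before it, at 63498259 to 63498586, had a score of 11.6, and its own first peak, at 63520523 to 63520919, had 3.83. Its last peak, at 63939308 to 63939611, had a score of 7.13, and the peak after it, at 63973949 to 63974299, had 4.83. SOX9 peaks covered 8.31% of the bases of the dense stretch, against 1.84% of the other middle bases and 0.412% of the outer 5 Mb.

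Peaks were not evenly laid out inside the dense stretch either. In bins of 50 kb the counts from left to right were 13, 8, 4, 6, 3, 14, 11, 11 and 3. The bin with the lowest count in the interior, 63.7 to 63.75 Mb, was the one that held the highest-scoring peak of the block. This peak had no other peak within 10 kb, and the nearest lay 18.5 kb away. The 3 bins to the right of that one, from 63.75 to 63.9 Mb, held 14, 11 and 11 peaks, and the first bin of the stretch, on its left, held 13. A cluster was taken as at least 3 successive peaks with gaps of no more than 12.5 kb. Clusters were sought in the block only, so the share of peaks in clusters elsewhere is not known. The dense stretch held 6 clusters that took in 68 of its 73 peaks.

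These clusters differed in how closely their peaks were packed and in whether they held a strong peak, meaning one with a score of 40 or more. The leftmost, at 63520523 to 63544019, packed 13 peaks into 23.5 kb, with peaks on 25.4% of its bases, a median score of 4.74 and a highest score of 8.33. The next, at 63575276 to 63615782, spread 10 peaks over 40.5 kb and covered 8.62% of the bases, with a highest score of 7.81. The longest, at 63734603 to 63795945, spread 16 peaks over 61.3 kb and reached a score of 16.2. None of these 3 clusters held a strong peak. The other large clusters each held 1. In the cluster at 63808506 to 63843389, 11 peaks had a median score of 8.37 and a highest of 123, and covered 22.6% of the bases. In the cluster at 63875054 to 63904403, 12 peaks had a median of 3.95 and a highest of 120, and covered 21.1%. The smallest of the 6, at 63641464 to 63674665, had 6 peaks with scores up to 6.46.

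**Figure D2:**
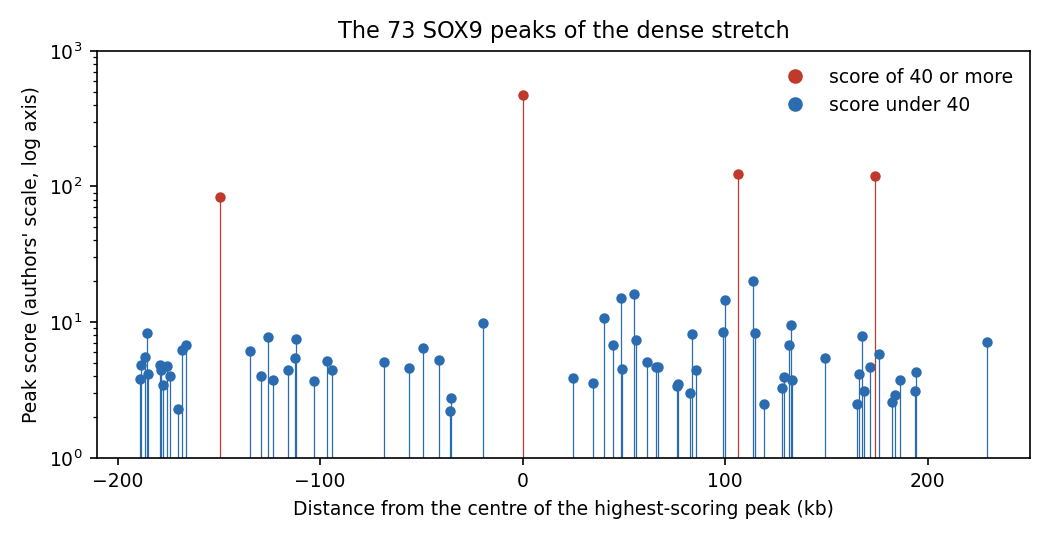
Score of each of the 73 peaks of the dense stretch on a log axis, by distance in kb from the centre of the highest-scoring peak. Red points are the 4 peaks with a score of 40 or more and blue points the other 69. The peak with a score of 471 has no neighbour within 10 kb, while most of the others stand in tight groups with scores under 20.

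Outside the dense stretch the block had 20 clusters holding 75 of 206 peaks, a share with no count from other regions to set beside it. None had more than 5 peaks. Of these 20, 9 had exactly 3 peaks and 5 held a strong peak. The cluster at 64635615 to 64641534 was an example, with a strong peak of score 111 followed by 4 peaks of lower score within 5.92 kb. At 64235492 to 64247909, 2 of the 3 peaks were strong, with scores of 81.9 and 104. No other cluster of the block held 2 strong peaks. The cluster at 64266816 to 64269744 was the most compact. Its 3 peaks spanned 2.93 kb and covered 78.5% of it, with scores of at most 8.09.

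The block held 25 strong peaks, 8.96% of its members (interval 5.88 to 12.9%), where 13.0% of the whole list had a score of 40 or more. The weakest of them scored 40.2, and the strongest peak below the limit, at 64302243 to 64302987, scored 37.1. Although the share was on the low side, the number per Mb was not. It was 2.5 per Mb (1.62 to 3.69), against 0.356 (0.259 to 0.478) on the rest of chromosome 11. Of the 25 strong peaks, 23 lay in the middle 5 Mb, and each of its 10 windows held at least 1. Neighbouring strong peaks were a median of 225 kb apart, with a range from 8.81 kb to 1313 kb.

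In the dense stretch the 4 strong peaks were all broad. The highest score of the block, 471, belonged to the peak at 63709141 to 63710650, which spanned 1510 bp and had rank 3 in the whole list. To its left, the peak at 63559097 to 63561774 scored 83.0 over 2678 bp. To its right, the peak at 63815008 to 63817374 scored 123 over 2367 bp. The last, at 63882701 to 63884845, scored 120 over 2145 bp. Their surroundings differed, since the first 2 by position had no other peak within 10 kb and the others had 4 and 8. The distances between them shrank from left to right, from 147 to 104 and then 65.3 kb.

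On the near side of the dense stretch, the window from 63 to 63.5 Mb held 2 strong peaks. The first peak of the middle 5 Mb, at 63014835 to 63015564, was itself strong, with a score of 101, and the nearest other peak lay 46.4 kb away. The second, a 1808 bp peak at 63439842 to 63441649 with a score of 82.6, had 3 other peaks within 10 kb. On the far side, 3 strong peaks lay between 64 and 64.5 Mb. They comprised the pair already described, at 64236893 to 64238273 and 64247087 to 64247909, and the narrower peak at 64402507 to 64402984, which scored 45.5 over 478 bp.

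From 64.5 to 65.5 Mb the strong peaks were narrow and lay at similar distances from each other. The peak at 64635615 to 64636122 scored 111 over 508 bp. The peak at 64878489 to 64879062 scored 95.8 over 574 bp, and the one at 65139325 to 65139815 scored 100.2 over 491 bp. The last of these, at 65357679 to 65358099, scored 74.2 and was the narrowest strong peak of the block, at 421 bp. The distances from each of these 4 to the next strong peak ranged from 218 to 260 kb.

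Between 65.5 and 66.5 Mb, 6 strong peaks were listed, and their scores varied more. The peak at 65812961 to 65813522 scored 193, rank 4 in the block, within 562 bp. The peaks on its left, at 65576037 to 65576487, and on its right, at 65944771 to 65945929, were near the limit with 45.4 and 40.2. The last differed in shape, at 1159 bp against 451 bp. Further right, the peaks at 66004160 to 66004598, at 66140369 to 66141257 and at 66482293 to 66482881 scored 65.9, 72.3 and 77.5. None of these 3 had another peak within 10 kb.

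The last part of the middle 5 Mb, from 66.5 to 68 Mb, held few strong peaks, but these included 4 of the 6 highest scores of the block. The peak at 66546879 to 66548355, 1477 bp wide, scored 279 and ranked 28 in the list. The peak at 67031964 to 67032765 scored 429, rank 2 in the block and rank 4 in the list, within 802 bp. Further peaks at 67645043 to 67645856 and at 67984263 to 67984916 scored 163 and 144. The latter was the last peak of the middle 5 Mb, so strong peaks stood at both of its ends. It was followed by 1313 kb without a strong peak.

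Only 2 strong peaks lay in the outer 5 Mb, both near its right end. The peak at 69297998 to 69300007 was 2010 bp wide with a score of 76.1, and the peak at 69601834 to 69603155 was 1322 bp wide with a score of 57.9. Between them lay the widest peak of the block, of 3234 bp at 69340630 to 69343863, which had a score of 31.0 and so was not among the strong ones. The stretch from 60 to 63 Mb had no strong peak among its 15, and its highest score was 23.7.

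Most members scored low. The median score was 5.34 (quartiles 3.83 and 9.88), against 8.89 (4.74 and 21.1) on the rest of chromosome 11 and 7.94 over the list. Of the members, 183 (65.6%, interval 59.7 to 71.2%) scored below the list median, which 48.3% of the whole list did. The dense stretch lay lower still, with a median of 4.74 and 57 of 73 peaks (78.1%, 66.9 to 86.9%) below the list median. The outer 5 Mb was closer to the list, with a median of 7.42 and 18 of 36 peaks below. All 10 windows of the middle 5 Mb had a median under that of the list, between 4.14 and 7.49. So did 4 windows of the outer 5 Mb, where 3 of 10 windows were empty. In the 14 windows outside the block with 15 or more peaks, medians ran from 4.29 to 10.8, so low medians were not confined to the block.

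The density of peaks relative to the rest of chromosome 11 is given by score class as a description, since the block was chosen on its peak number. Peaks scoring under 5 were 18.1 times as dense in the block (exact conditional 95% interval 13.7 to 24.1), with 126 against 86 peaks. The ratio was 13.7 (9.90 to 18.9) for scores from 5 to 10. It was 6.63 (4.49 to 9.68) for scores from 10 to 40, and 7.03 (4.12 to 11.7) for strong peaks, where it rested on 25 against 44 peaks. Between the dense stretch and the other peaks of the middle 5 Mb, the density ratio was 5.26 (3.48 to 7.84) under a score of 5 and 5.16 (3.05 to 8.52) from 5 to 10. From 10 to 40 it was 1.87 (0.563 to 4.93) and for strong peaks 2.13 (0.527 to 6.41), both with 5 or fewer peaks in the dense stretch.

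The median width of the members was 364 bp (quartiles 291 and 541 bp), against 434 bp (311 and 650 bp) on the rest of chromosome 11 and 413 bp over the list. Widths of 1000 bp or more were found for 24 members (8.60%, 5.59 to 12.5%) and for 10.7% of the list. The smallest width in the list, 243 bp, was shared by 18 members (6.45%, 3.87 to 10.0%) and by 7.91% of the list. Score and width rose together across members (Spearman's rho = 0.67), as a description over peaks of 1 library that share its depth. Over the whole list rho was also 0.67, so this is no trait of the block. It was 0.48 in the dense stretch and 0.72 in the block without it. At a score under 5, the median width was 325 bp in the dense stretch and 287 bp in the remainder of the block, while from 5 to 10 it was 362 and 374 bp. Strong peaks had a median width of 2256 bp in the dense stretch (range 1510 to 2678 bp, 4 peaks). Elsewhere in the block it was 730 bp (421 to 2010 bp, 21 peaks), and outside the block 792 bp (958 peaks).

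Spacing followed the density. The gap from a peak to the next had a median of 3.15 kb in the dense stretch (quartiles 0.851 and 6.81 kb) and 15.9 kb in the other parts of the middle 5 Mb (5.03 and 34.0 kb). It was 62.9 kb in the outer 5 Mb and 159 kb on the rest of chromosome 11. Gaps under 1 kb followed 21 of the 73 dense-stretch peaks (28.8%, 18.8 to 40.6%) and 25 of 170 in the other middle parts (14.7%, 9.75 to 20.9%), compared with 12.7% of the gaps of the list. On the rest of chromosome 11 the share was 12.5% (8.94 to 16.9%). Since the dense stretch was set apart for its crowded peaks, its short gaps are part of that choice. The middle and outer 5 Mb were likewise divided on counts already seen. The order of the median gaps therefore restates the densities and is no separate result. Of the strong peaks 14 of 25 had no other peak within 10 kb, and of the other members 78 of 254. Without the dense stretch these numbers were 12 of 21 and 74 of 185. Neighbours within 10 kb were not counted outside the block, so these numbers do not set the block apart from the list.

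**Figure D3:**
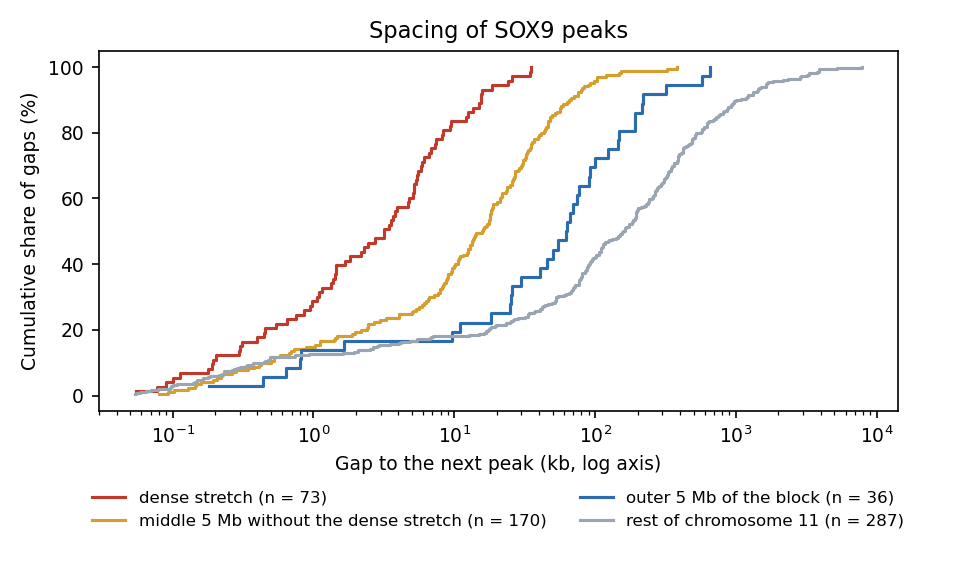
Cumulative share in percent of gaps from each SOX9 peak to the next, in kb on a log axis, for 4 regions of chromosome 11, 1 library. Median gaps are 3.15 kb in the dense stretch, 15.9 kb in the other middle parts, 62.9 kb in the outer 5 Mb and 159 kb on the rest of the chromosome, while at 1 kb the last 3 curves lie between 12.5% and 14.7%.

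The score values themselves changed along the block. In the whole list many peaks carry exactly the same score to 5 decimals. The commonest value, 3.99, was carried by 295 peaks, and 44.3% of all peaks had a value that 20 or more peaks carried. In the outer 5 Mb this held for 21 of 36 peaks (58.3%, 40.8 to 74.5%), but in the middle 5 Mb for only 20 of 243 (8.23%, 5.10 to 12.4%). Conversely, 146 of the 243 middle peaks (60.1%, 53.6 to 66.3%) had a value found once in the list, as 17.4% of the list did, against 0 of the 36 outer peaks (0 to 9.74%). The second commonest value, 4.92, was carried by 279 peaks of the list and by 10 on the rest of chromosome 11, but by none in the block. Other common values did occur there. The values 3.99, 3.11 and 5.89 were carried by 5, 4 and 2 members, and by 10, 10 and 2 peaks on the rest of chromosome 11. In the list they were carried by 295, 201 and 210 peaks, and the block held 3.70% of all peaks.

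For values found once, the change fell at the same sides as the change in density. For common values it did so on the left and was less sharp on the right. From 60 to 63 Mb, 13 of 15 peaks had a common value, and in the window from 63 to 63.5 Mb 1 of 18 had. In the window from 63.5 to 64 Mb it was 5 of 74, and in the windows from 64 to 67 Mb it ranged from 0 of 18 to 3 of 25. The window from 67 to 67.5 Mb was an exception within the middle 5 Mb, with 4 of 9. From 68 to 70 Mb, 8 of 21 peaks had a common value and none a value found once. The first window there, 68 to 68.5 Mb, had a common value for 1 of 5 peaks. The shares also differed within each of the 3 score classes under 40, while no strong peak of the list carried a common value. Among peaks scoring under 5, a common value was carried by 15 of 114 in the middle 5 Mb (13.2%, 7.56 to 20.8%) and by 54 of 86 on the rest of chromosome 11 (62.8%, 51.7 to 73.0%). From 5 to 10 the shares were 5.41% (1.49 to 13.3%) and 44.7% (33.3 to 56.6%), and from 10 to 40 they were 3.13% (0.0791 to 16.2%) and 25.6% (16.6 to 36.4%). No source used here says how the score was computed, and what sets a common or a rare value was not tested.

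**Figure D4:**
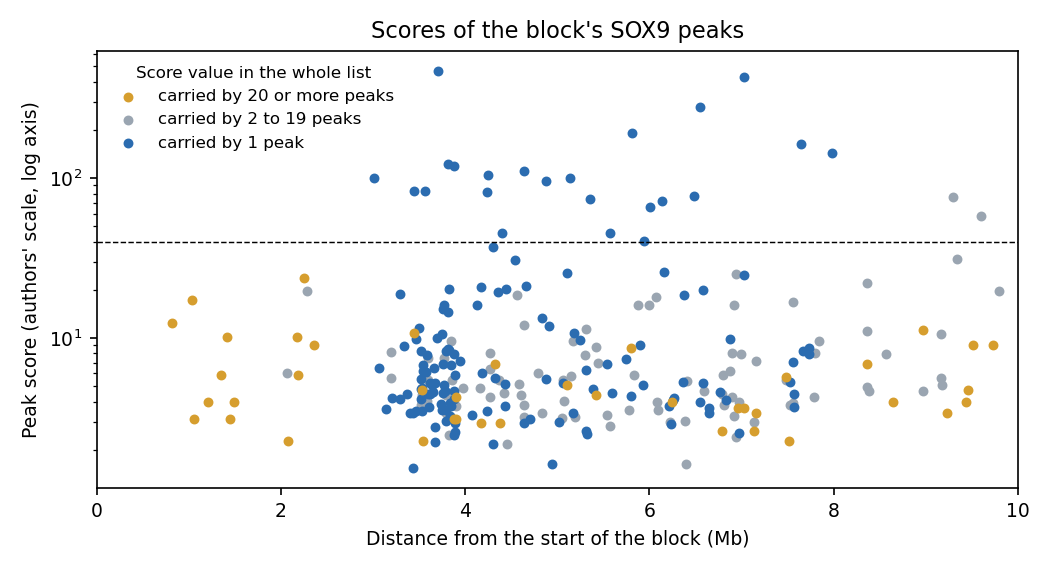
Score of each of the 279 members on a log axis, by distance in Mb from the start of the block, with the strong limit of 40 as a dashed line. Blue points have a score that no other peak of the list carries, grey points one carried by 2 to 19 peaks and gold points one carried by 20 or more. Blue points fill the middle 5 Mb, with 146 of 243 peaks, and none lies in the outer 5 Mb.

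**Figure D5:**
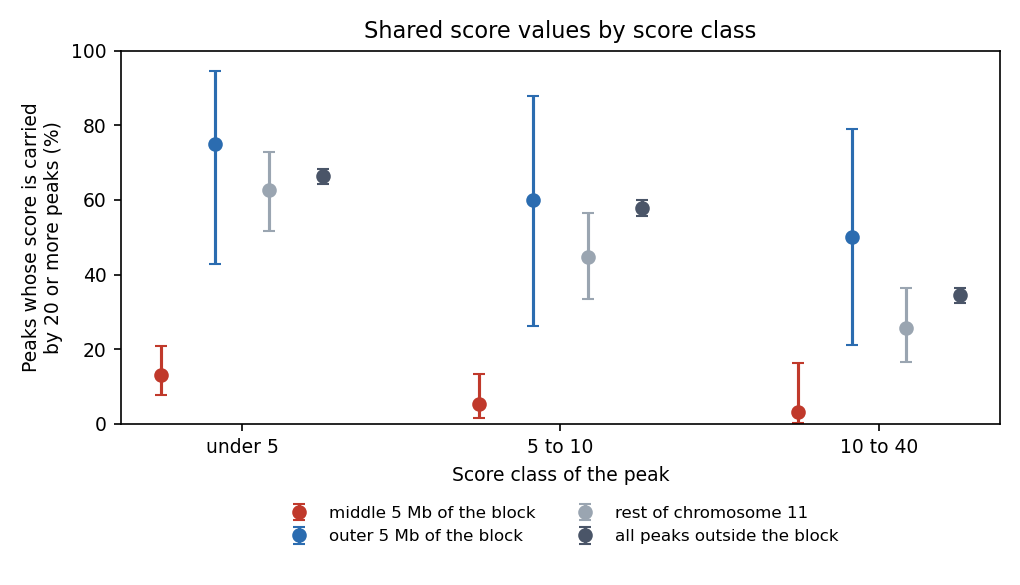
Share in percent of peaks whose score is carried by 20 or more peaks of the list, by score class, with exact Clopper-Pearson 95% intervals. The middle 5 Mb of the block lies at 13.2%, 5.41% and 3.13%, below the outer 5 Mb, the rest of chromosome 11 and all peaks outside the block in each class.

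The same windows were set beside the fullest windows elsewhere. Over the nuclear chromosomes 2877 windows of 0.5 Mb held a SOX9 peak, with a median of 2. Windows with 15 or more peaks numbered 9 in the block and 14 elsewhere. Outside the block the fullest held 26 peaks, at 1 to 1.5 Mb of chromosome 19, followed by 24 peaks at 139 to 139.5 Mb of chromosome 9. The fullest window of the block held 74, but its other 8 held 16 to 25 and so lay within the range of the fullest windows of other chromosomes. In these 9 windows at most 12% of peaks had a common score value. Elsewhere the share ran from 6.25% to 86.7%, and it was under 15% in 3 of 14 windows. These were at 44 to 44.5 Mb of chromosome 21, at 110 to 110.5 Mb of chromosome 13 and at 132.5 to 133 Mb of chromosome 2, so a low share was not confined to the block. The 9 windows of the block held 1 to 4 strong peaks each, and the 14 elsewhere held 0 to 6 each. The chromosome 19 window was at the upper end, with 6 strong peaks among 26.

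Input chromatin showed no listed peak in the block. Of the 401 input peaks 10 lay on chromosome 11 and 0 in the block, and a count of 0, taken to allow up to 3 peaks of 401, allows a share of up to 0.748% of the input list, counting error only. The nearest input peak on the left ended at 54783079 and the nearest on the right began at 77275155. Accordingly 0 of the 279 members overlapped an input peak (exact Clopper-Pearson interval 0 to 1.31%), where 0.530% of the SOX9 list did. Since that background is itself low, 0 of 279 does not set the block apart from the list. The input library was listed on its own, at a depth that is unknown, and its list holds peaks only, not the level of input signal between them.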

How the data were processed

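Both deposited files were peak lists of 5 columns without header lines, 1 for the SOX9 library and 1 for input, with a score per peak from the authors whose scale no source used here states. The submitters' processing notes name the build hg18 and CASAVA, version 1.8.2. Aligner, peak caller, calling threshold and any use of input as control are not stated there or in the labels. The deposited SOX9 names include replicate number 2, and other replicates were not analysed here. Names in the block ran without a break from 1115 to 1393. Read depth is unknown, and intervals treat the peaks as independent. Starts are printed as 1-based positions.

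The members, the windows and the dense stretch were chosen with earlier results of these data known, and the middle 5 Mb and the shared score values were added after the values had been seen. The peaks to be named were all strong peaks, the 3 widest, clusters of 8 or more and the 5 fullest and the empty windows. Further peaks and clusters were named after their values were seen. The length of chromosome 11 was taken to the last peak of either list, at 133.65 Mb. Overlap meant 1 shared bp. Counting was checked on simulated data. Values were recomputed with neighbours within 500 bp merged, with peaks at or above the list median, without peaks of 243 bp, with whole peaks inside, without the dense stretch, with other score limits, cluster gaps and window starts. Tools were scipy 1.17.1, pandas 2.3.3 and numpy 2.4.6 under Python 3.11.15, with matplotlib 3.10.9 for plots.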

Additional observations from a re-analysis of the deposited data

How the results depend on the processing

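Under the alternatives 70 values were obtained, and 51 of them differed from the reported value by no more than its 95% interval (shares, medians) or a factor of 1.5 (counts, densities). All 13 values were identical when the whole peak had to lie inside the block. This was fixed in advance, since no peak crossed a limit of the block or of the dense stretch. The overlap with input was likewise bound to stay at 0, as no input peak lay in the block. These values are among the 51 and say nothing about stability. Restriction to peaks at or above the list median, which removes most members by construction, changed the most. It left 96 peaks, 9.6 per Mb and 37.1% of the chromosome 11 peaks, against 279, 27.9 and 49.2%. The dense stretch then had 16 peaks, 16.7% of the block, and the fullest window also 16. Clusters fell from 26 to 2, and the median score was 16.5, the median width 582 bp, the median gap 45.3 kb, the strong share 26.0% and the share at minimum width 0%. Merging neighbours moved the median gap from 11.03 to 15.3 kb. Without the dense stretch that gap was 18.2 kb and the block's share of chromosome 11 41.7%. With strong set at 20 or 80, the strong share was 13.6% or 5.73%. Windows shifted by 0.25 Mb divided the dense stretch between windows, and the fullest then held 49 peaks in place of 74. With a common score value defined by 50 or more peaks, a setting chosen after seeing the data, the share in the block was 7.89% in place of 14.7%. It was then 2.47% in the middle 5 Mb, 44.4% in the outer 5 Mb and 31.9% outside the block. The share below the list median cannot be computed among peaks at or above it, nor the share at minimum width without such peaks. No replicate could be left out, and no paired analysis was possible because each group has 1 library. Gene positions, motifs and sequences were not run.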
